A study of Mus musculus with 4 samples.

Results

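Methionine sulfoxide reductases and enzymes of the methionine cycle were examined in RNA of mouse 2-cell embryos cultured with or without dimethyl sulfoxide (DMSO). The members were 10 genes chosen by name, the reductases Msra, Msrb1, Msrb2 and Msrb3 and the cycle genes Mat2a, Mat2b, Ahcy, Bhmt, Mtr and Mtrr, out of 30049 Ensembl genes in the deposited table, and all 10 were listed there. Wild-type embryos from crosses of BDF1 mice with BDF1 mice were taken as zygotes 18 h after human chorionic gonadotropin and kept for 24 h in KSOM, which is a medium for embryos before implantation. The control group received no DMSO and the treated group 2% DMSO, with 2 libraries in each group. The embryos sequenced were those that had reached the 2-cell stage, 50 being collected for each group, and whether each library held all 50 is not stated. Values are TPM, a unit in which read numbers are divided by transcript length and set to a fixed total per library, so that levels can be compared between genes. The genes listed added up to 768174 and 780527 TPM for control embryos and to 772487 and 799166 TPM for DMSO-treated embryos, and these values do not give the depth of a library. The 20 most abundant genes took 22.1% and 23.6% of that sum without DMSO, and 29.4% and 35.1% with it.

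Methionine residues in proteins and free methionine are oxidised to methionine sulfoxide, which exists in a pair of mirror forms at sulfur. MsrA reduces the S form and the MsrB enzymes reduce the R form, with electrons that come mostly from thioredoxin. MsrA can also reduce other methyl sulfoxides, DMSO among them, to the sulfide. In the methionine cycle, methionine is converted to S-adenosylmethionine (SAM), the methyl donor for DNA, RNA, histones and lipids. Each transfer leaves S-adenosylhomocysteine (SAH), which is hydrolysed to homocysteine, and homocysteine is methylated back to methionine either with methylfolate and cobalamin or with betaine.

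The data asked whether these genes differed between control and DMSO-treated embryos. Bhmt, which encodes betaine-homocysteine methyltransferase, fell about 8.62-fold on mean TPM, and Mat2a, which encodes the catalytic subunit that makes SAM outside the adult liver, fell 2.39-fold. Those were the only members called by limma, which fits a linear model to each gene and moderates its variance towards that of the other genes, at an adjusted p under 0.05. The adjustment was over the 12038 genes whose mean reached 1 TPM. The members tested were 7, of which 2 were called lower and 0 higher. Msra was among the 7 only through its DMSO libraries, its control mean being under 1 TPM. Over all genes tested 14.1% were called lower and 6.42% higher, or 20.5% in either direction, so 2 of 7 is not read as a property of the group. After quantile normalization the calls over all genes were 1121 lower and 1076 higher, in place of 1697 and 773. Of the genes that every cell uses, Hprt, a purine salvage enzyme, was also called lower, by 2.55-fold (limma adjusted p = 0.0309). Ppia, a peptidyl-prolyl isomerase, was 1.87-fold lower on mean TPM (limma adjusted p = 0.0927), and Gapdh, a glycolytic enzyme, differed by -0.13 on the log2 scale (limma adjusted p = 0.695). The part of the larger share of the most abundant genes in the lower values was not tested. No member with a higher fitted value had an unadjusted p under 0.05. Msrb2 and Msrb3 were below the filter on low values, and Ahcy was listed at 0 in every library. As each library is RNA of pooled embryos, fewer embryos with a transcript and less of it per embryo cannot be told apart.

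The members' transcripts differ in how far their reads can be told from those of other genes, and short stretches of coding sequence show this for Bhmt and Ahcy. kallisto, the tool that the authors used, assigns reads by matching short words of sequence and divides words that several genes share. Of the 31-base words in Bhmt transcripts, 30.3% also occur in other genes. The copy Gm5096 has a coding sequence of the same length, 1224 bases, and differs from that of Bhmt at 4 of them. Bases 124 to 186 of the coding sequences, in GENCODE M21 on GRCm38, are shown with the differing base in capitals.
Bhmt: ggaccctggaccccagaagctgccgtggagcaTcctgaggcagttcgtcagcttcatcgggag
Gm5096: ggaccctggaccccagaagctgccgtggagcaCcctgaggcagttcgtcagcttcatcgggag
For Ahcy 71.4% of the words are shared, and the coding sequence of its copy Gm4737 differs at 4 of 1299 bases. Bases 427 to 489 hold a pair of these, again in capitals.
Ahcy: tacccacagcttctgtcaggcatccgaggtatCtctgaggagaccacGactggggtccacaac
Gm4737: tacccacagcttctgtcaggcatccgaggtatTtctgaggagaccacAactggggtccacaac
Msrb1 shares none of its words with other genes. Its coding sequence of 351 bases holds a single TGA codon in frame before the stop codon, at base 283, which GENCODE marks as the selenocysteine codon at chr17:24740158-24740160 on the plus strand. Bases 256 to 312 are shown, as the mark of this selenoprotein, with that codon in capitals.
Msrb1: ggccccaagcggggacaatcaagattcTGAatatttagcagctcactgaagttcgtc

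**Figure D1:**
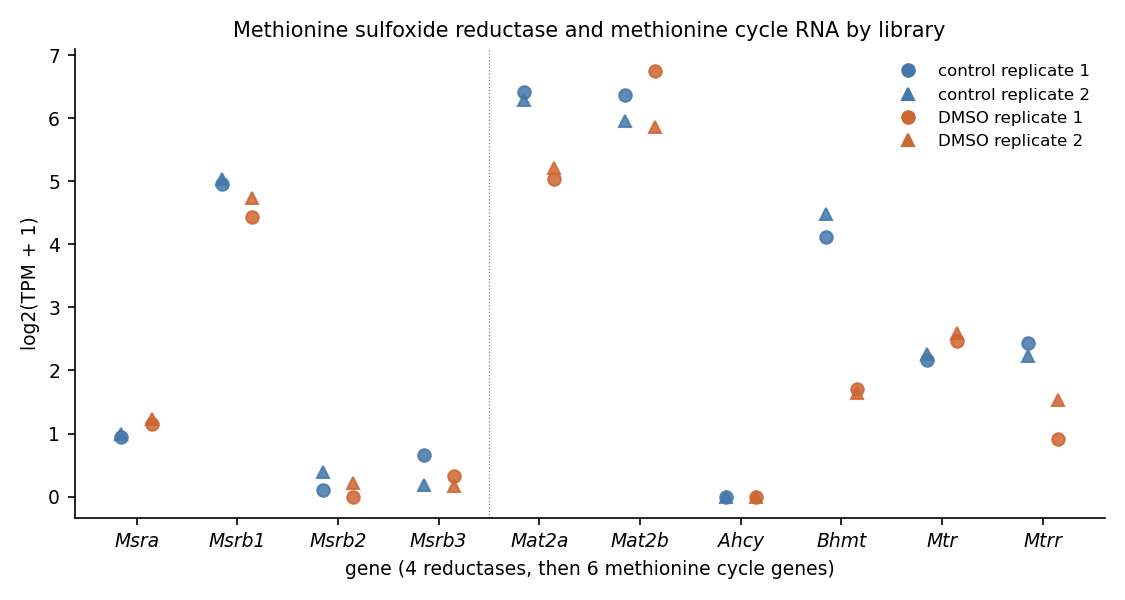
RNA level of the 10 genes as log2(TPM + 1), one point per library, with control libraries in blue, DMSO libraries in orange, circles for replicate 1 and triangles for replicate 2. Bhmt, Mat2a, Mtrr and Msrb1 lay lower in both DMSO libraries than in both control libraries, Mat2b overlapped between the groups, and Ahcy was listed at 0 in all 4.

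The order of levels in control embryos ran from the SAM synthase genes down to the minor reductases. The mean TPM (± SD, n = 2 libraries) was 81.1 ± 5.31 for Mat2a, 71.4 ± 14.7 for Mat2b, 31.1 ± 1.27 for Msrb1 and 18.9 ± 3.53 for Bhmt. It was 4.06 ± 0.517 for Mtrr, 3.64 ± 0.208 for Mtr and 0.952 ± 0.0448 for Msra. Msrb3 and Msrb2 followed at 0.360 ± 0.311 and 0.196 ± 0.167 TPM. Mat2a and Mat2b, Mtrr and Mtr, and Msrb3 and Msrb2 did not differ beyond their spread. In DMSO-treated embryos Mat2b came first at 82.2 ± 35.4 TPM, ahead of Mat2a at 33.9 ± 2.91 and Msrb1 at 23.1 ± 3.46. Mtr then stood at 4.79 ± 0.320 TPM, above Bhmt at 2.19 ± 0.114. Mtrr at 1.40 ± 0.719 and Msra at 1.28 ± 0.0989 TPM did not differ beyond their spread, nor did Msrb3 at 0.188 ± 0.0849 and Msrb2 at 0.0792 ± 0.112 TPM. Mat2a stood above 87.2% of the tested genes in control embryos and above 78.0% in DMSO-treated embryos. Bhmt moved from above 65.4% of them to above 20.6%.

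Among the reductases, Msrb1 had nearly all of the listed TPM. Msrb1 (ENSMUSG00000075705, chromosome 17 from 24736642 to 24742778 on GRCm38, plus strand), the selenoprotein reductase of cytosol and nucleus, was at 30.2 and 32.0 TPM without DMSO and 20.7 and 25.5 TPM with it. The DMSO libraries were the lower ones and the groups did not overlap. The log2 fold change was -0.42 (standard error 0.28, 95% confidence interval -1.08 to 0.24, limma adjusted p = 0.287), and Msrb1 was not called. That fold change was -0.22 after quantile normalization, and it ran from -0.57 to -0.27 with a library left out. Msrb1 made up between 93.4% and 95.7% of the summed TPM of the 4 reductases in a library. That sum was 31.7 and 33.4 TPM without DMSO and 22.1 and 27.2 TPM with it.

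Msra, the gene of the reductase that can act on DMSO itself, was listed at a low level in all 4 libraries. Msra (ENSMUSG00000054733, chromosome 14 from 64122625 to 64455903, minus strand) was at 0.920 and 0.983 TPM in untreated embryos, against 1.21 and 1.35 TPM in treated ones. The values in DMSO-treated embryos were the higher ones, without overlap, by a small amount. Its log2 fold change was 0.22 (standard error 0.33, 95% confidence interval -0.57 to 1.02, limma adjusted p = 0.634). The mean of Msra was 0.952 TPM in controls, so it passed the filter on low values only through the DMSO group. Its limma result is therefore not read as a test. The listed TPM of Msrb1 was 32.8 and 32.5 times that of Msra in controls, against 17.0 and 18.9 times after DMSO. Actb (beta-actin), which every cell uses, was listed at 1.09 and 0.706 TPM in controls. A listed value as low as that of Msra is therefore not read as scarcity of the transcript. Msrb2, the mitochondrial MsrB, was at 0.0778 and 0.313 TPM in controls and at 0 and 0.158 TPM after DMSO. Msrb3, whose products go to the endoplasmic reticulum or mitochondria, was at 0.580 and 0.140 TPM without DMSO and 0.248 and 0.128 TPM with it. Both overlapped between the groups and neither was tested.

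Of the 2 genes for SAM synthesis, that of the catalytic subunit was called lower and that of the regulatory subunit was not called. Whether their changes differ was not tested. Mat2a (ENSMUSG00000053907, chromosome 6 from 72432799 to 72439558, minus strand) was at 84.8 and 77.3 TPM in untreated embryos, against 31.8 and 35.9 TPM in treated ones. Both DMSO libraries were below both control libraries, and the replicates of each group lay close together. The fitted log2 fold change was -1.24 (standard error 0.26, 95% confidence interval -1.85 to -0.62, limma adjusted p = 0.0278). Mat2b (ENSMUSG00000042032, chromosome 11 from 40679314 to 40695203, minus strand), the regulatory partner, was at 81.7 and 61.0 TPM in controls and at 107 and 57.2 TPM after DMSO. The groups overlapped, the second DMSO library being the lowest of all. The log2 fold change of Mat2b was 0.15 (standard error 0.37, 95% confidence interval -0.73 to 1.02, limma adjusted p = 0.779), and it was -0.06 without control replicate 2 and -0.30 without DMSO replicate 1. The ratio of Mat2a to Mat2b within a library does not depend on scaling between libraries. It was 1.04 and 1.27 without DMSO, against 0.297 and 0.629 with it. Mat2b was thus the more abundant of the pair in both DMSO libraries and in neither control library. Of the 31-base words of Mat2a 19.5% occur in other genes, chiefly the overlapping noncoding gene Particl and the pseudogene Gm9523, neither of which was in the table used here. Other genes that the table lists hold 0% of the words of Mat2a.

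The promoter of Mat2a is shown as that of a called member. The 150 bases before the GENCODE M21 start of Mat2a lie at chr6:72439559-72439708 (GRCm38, minus strand, sequence from RefSeq) and are printed with matches in capitals. The motifs searched on both strands were the Sp motif GGGCGG, the CCAAT box (its name gives its letters) and the TATA box TATAAA, and the first run of capitals holds a pair of overlapping matches to the Sp motif on the other strand.
Mat2a: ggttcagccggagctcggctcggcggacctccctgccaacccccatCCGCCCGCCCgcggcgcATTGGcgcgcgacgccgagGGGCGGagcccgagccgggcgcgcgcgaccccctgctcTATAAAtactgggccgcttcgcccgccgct
In the 250 bases before each start in the RefSeq promoter table, the Sp motif was present in 32.7% of 32851 promoters, the CCAAT box in 33.8% and the TATA box in 12.4%. The E-box CACGTG, found in 6.02%, and the cAMP response element TGACGTCA, found in 1.55%, were in none of the members' promoters that the table holds. Among the members the TATA box was in the promoters of Mat2a, which was called, and Msrb1, which was not. The Sp motif and the CCAAT box were in those of both Mat2a and Mat2b, and the promoter of Bhmt, the other called member, held the CCAAT box and neither of the other two. A match of letters is a description of the window and not of binding.

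**Figure D2:**
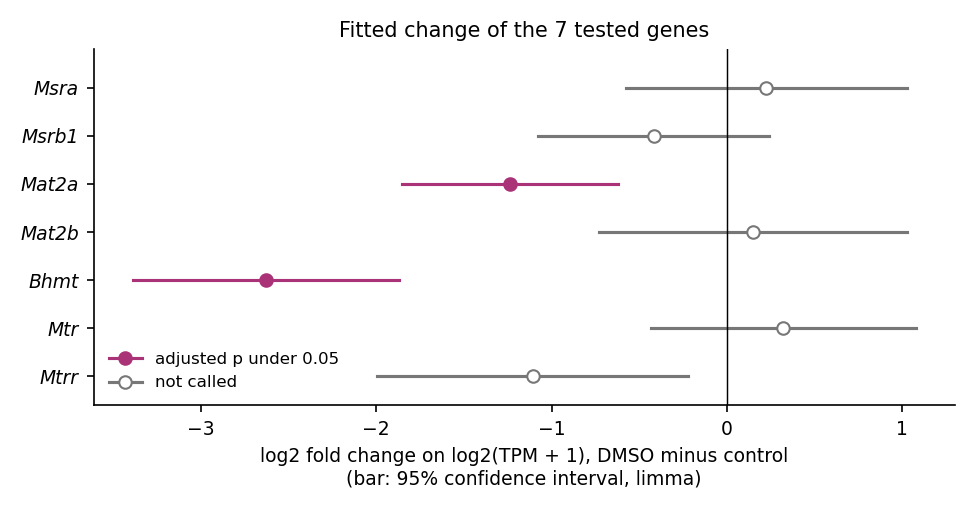
Fitted log2 fold change of the 7 tested genes on the log2(TPM + 1) scale, DMSO minus control, with 95% confidence intervals from limma. Filled points mark Bhmt at -2.63 and Mat2a at -1.24, which were called, and open points the 5 genes that were not. Msra passed the filter on low values only through the DMSO group.

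Among the 7 tested members, Bhmt had the largest fitted change. Bhmt (ENSMUSG00000074768, chromosome 13 from 93616675 to 93637961, minus strand), the enzyme that uses betaine, was at 16.4 and 21.4 TPM without DMSO and 2.27 and 2.11 TPM with it. The lowest control library was several times above the highest DMSO library. The log2 fold change was -2.63 (standard error 0.32, 95% confidence interval -3.39 to -1.87, limma adjusted p = 0.0181). The copies Gm5096 and Bhmt-ps1, which hold 27.1% and 15.6% of the 31-base words of Bhmt, were listed at no more than 0.0810 TPM. Bhmt summed with both gave 16.5 and 21.5 TPM without DMSO and 2.35 and 2.11 TPM with it. The division of reads among the copies is an estimate, and the sum is close to the value of Bhmt alone.

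The folate-dependent route consists of Mtr, methionine synthase, and Mtrr, the reductase that restores its cobalamin cofactor. Mtr (ENSMUSG00000021311, chromosome 13 from 12182712 to 12258113, minus strand) was at 3.49 and 3.78 TPM in untreated embryos, against 4.56 and 5.01 TPM in treated ones. Mtr was slightly higher in both treated libraries than in either control, by a log2 fold change of 0.32 (standard error 0.32, 95% confidence interval -0.44 to 1.08, limma adjusted p = 0.468). Mtrr (ENSMUSG00000034617, chromosome 13 from 68560780 to 68582149, minus strand) was at 4.43 and 3.70 TPM in controls and at 0.890 and 1.91 TPM after DMSO. The groups did not overlap, but the DMSO libraries were far apart. The fitted log2 fold change was -1.11 (standard error 0.37, 95% confidence interval -1.99 to -0.22, unadjusted p = 0.0216, limma adjusted p = 0.0754), and Mtrr was not called. With the replicate number as a block Mtrr was called (limma adjusted p = 0.0392), though the labels do not pair the libraries. Within a library, Bhmt was 4.71 and 5.66 times as abundant as Mtr in controls, and 0.499 and 0.421 times after DMSO. Mtr over Mtrr was 0.787 and 1.02 in controls, against 5.12 and 2.63 after DMSO. These ratios were not tested. An exact permutation test on 2 libraries against 2 cannot go below p = 0.33, and a fit like that of the genes was not run on them.

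**Figure D3:**
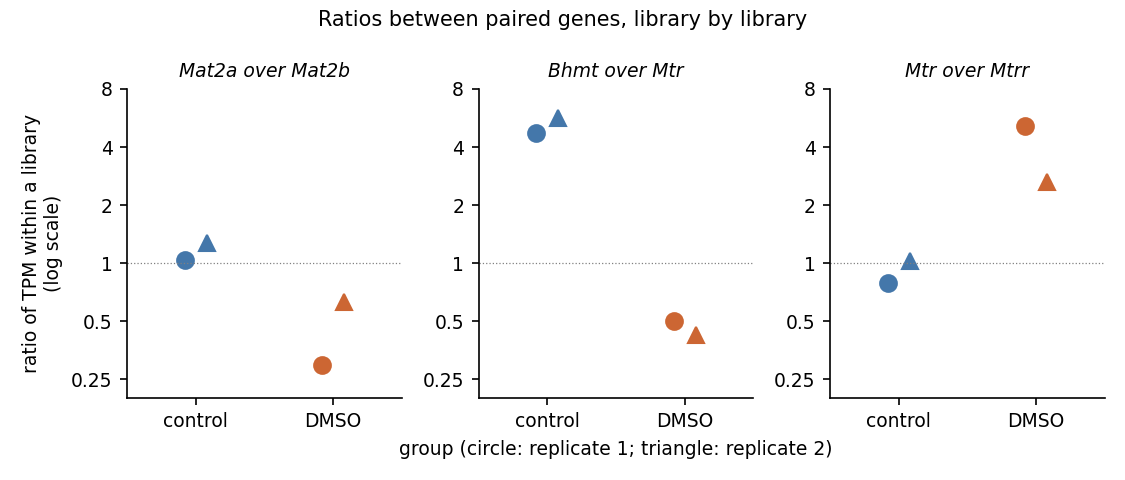
Ratios of TPM between genes of the same library on a log scale, for Mat2a over Mat2b, Bhmt over Mtr and Mtr over Mtrr, with control libraries in blue and DMSO libraries in orange. In each panel the 2 groups did not overlap, and Bhmt passed from above Mtr in both control libraries to below it in both DMSO libraries.

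Ahcy (ENSMUSG00000027597, chromosome 2 from 155059310 to 155074497, minus strand), the gene of the enzyme that hydrolyses SAH, was listed at 0 in all 4 libraries. Its 4 copies were at or near 0 as well. Gm4737, which the sequences above show beside Ahcy, was at 0.260 TPM in control replicate 2 and at 0 in the other libraries, and the pseudogene Gm9826 was at 0.213 TPM in control replicate 1 alone. Summed with its copies Ahcy reached 0.213 and 0.260 TPM without DMSO and 0 in both libraries with it. A listed 0 is not read here as absence of the transcript, because genes that every cell uses were also listed near it. Actb (beta-actin) was at 1.09 and 0.706 TPM without DMSO and 8.58 and 0 TPM with it, and Pgk1 (a glycolytic kinase) was at 0 in both DMSO libraries. Ahcyl1 and Ahcyl2, relatives of Ahcy without its known hydrolase role, overlapped between the groups. Ahcyl1 was at 16.9 and 24.0 TPM without DMSO and 21.0 and 15.4 TPM with it, and Ahcyl2 at 12.4 and 12.1 TPM without it and 17.7 and 9.13 TPM with it.

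Of the 7 members tested, 4 were lower and 2 higher in both DMSO libraries than in both control libraries. The same held for 38.7% and 31.1% of all genes tested, so that separation of 2 libraries from 2 is common in this table. Msra, among the 2 higher, passed the filter on low values only through the DMSO group. The median log2 fold change of the 7 was -0.42, against -0.09 over all genes tested. That median is the value of Msrb1, which was -0.22 after quantile normalization, where the median over all genes was 0.0052. The calls of Bhmt and Mat2a held without DMSO replicate 2 (limma adjusted p = 0.0301 and 0.0453) but were lost without any other library and without the filter. Without control replicate 1, control replicate 2 or DMSO replicate 1, limma's adjusted p was 0.0873, 0.155 and 0.0827 for Bhmt and 0.124, 0.177 and 0.108 for Mat2a, no gene in the whole table being called in these fits. With every gene above 0 TPM tested it was 0.102 for both, and again 0 genes were called although 5368 of 22257 had an unadjusted p under 0.05. Over the 4 fits that leave out a library, the fold change of Bhmt on the log2 scale lay between -2.81 and -2.45 and that of Mat2a between -1.32 and -1.15.

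Bhmt lies in a row of related genes on chromosome 13. Its nearest coding gene on one side, 17758 bases away, is Bhmt2, the paralogue that uses S-methylmethionine, and 130 bases beyond Bhmt2 begins Dmgdh on the opposite strand, which encodes the dehydrogenase of dimethylglycine, the product that BHMT makes from betaine. Bhmt2 was at 17.8 and 9.08 TPM in untreated embryos, against 4.53 and 4.47 TPM in treated ones (log2 fold change -1.32, limma adjusted p = 0.0542). Dmgdh was at 5.74 and 6.52 TPM in controls and at 2.55 and 2.95 TPM after DMSO (log2 fold change -0.93, limma adjusted p = 0.0804). Neither was called, although the groups did not overlap for either gene. Sardh, sarcosine dehydrogenase, which takes the next step after Dmgdh, was at 37.1 and 47.4 TPM without DMSO and 4.38 and 9.39 TPM with it. It fell by 2.52 on the log2 scale (standard error 0.39, limma adjusted p = 0.0188). Of the 7 choline and betaine genes 5 were tested, and Sardh was the one called, a share near the 20.5% called over all genes. Aldh7a1, which can oxidise betaine aldehyde, was at 14.3 and 17.4 TPM in untreated embryos, against 36.4 and 25.8 TPM in treated ones (limma adjusted p = 0.0753). Chdh, choline dehydrogenase, was listed at 0 in all 4 libraries.

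Genes around the cycle were taken from 11 lists of 73 names, of which 72 were in the table and 56 were tested. limma called 10 lower and 3 higher, or 23.2% in either direction against 20.5% of all genes, and the median log2 fold change was -0.24 against -0.09. In the folate cycle, which carries the methyl group that Mtr uses, 3 of 9 tested genes were called lower and 1 higher. Over all genes the shares were 14.1% and 6.42%, and the count of so few genes is not read as a property of the list. Shmt1, the cytosolic serine hydroxymethyltransferase, was at 189 and 129 TPM in controls and at 56.0 and 51.0 TPM after DMSO (log2 fold change -1.53, limma adjusted p = 0.0237). Mthfd1, which interconverts folate forms in the cytosol, was at 5.28 and 6.30 TPM without DMSO and 1.15 and 1.66 TPM with it (log2 fold change -1.50, limma adjusted p = 0.0315). The call of Mthfd1 was lost with any library left out, the fold change lying between -1.66 and -1.35. Tyms, thymidylate synthase, fell by 2.36 on the log2 scale (limma adjusted p = 0.0242), from 14.3 and 33.9 TPM to 2.94 and 4.19 TPM. The fitted value of Tyms was -2.95 without control replicate 1 and -1.76 without control replicate 2. Shmt1, Mthfd1 and Tyms were below every control library in both DMSO libraries. Mthfs, which returns folinic acid to the folate pool, rose from 46.4 and 18.9 TPM to 136 and 86.4 TPM (log2 fold change 1.83, limma adjusted p = 0.0391). That call was lost without a trend (adjusted p = 0.0505) and with any library left out, the fold change being 2.46 without control replicate 1 and 1.21 without control replicate 2. Mthfd2, a mitochondrial folate enzyme, was the most abundant of the list on the mean of all 4 libraries, although Shmt1 was higher in controls. Mthfd2 was at 113 and 57.9 TPM in untreated embryos, against 236 and 129 TPM in treated ones (limma adjusted p = 0.108).

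Cobalamin is the cofactor of methionine synthase, and 1 of 4 tested genes for its handling was called, or 25.0% against 20.5% of all genes. Cd320, the receptor that takes up cobalamin on its carrier, was at 262 and 289 TPM without DMSO and 91.1 and 149 TPM with it (log2 fold change -1.23, limma adjusted p = 0.0386). The call was lost without a trend (adjusted p = 0.0567), after median-ratio scaling (0.0552) and after quantile normalization (0.0789). Mmachc, which processes cobalamin in the cytosol, differed by -0.66 on the log2 scale (limma adjusted p = 0.196). In transsulfuration, which withdraws homocysteine from the cycle, Cth was at 95.1 and 100.5 TPM in untreated embryos, against 146 and 98.3 TPM in treated ones (limma adjusted p = 0.468). Cbs, the enzyme before it, was at 0.833 and 0.899 TPM in controls and at 0.0432 and 0.0234 TPM after DMSO, below the filter, and was not tested.

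**Figure D4:**
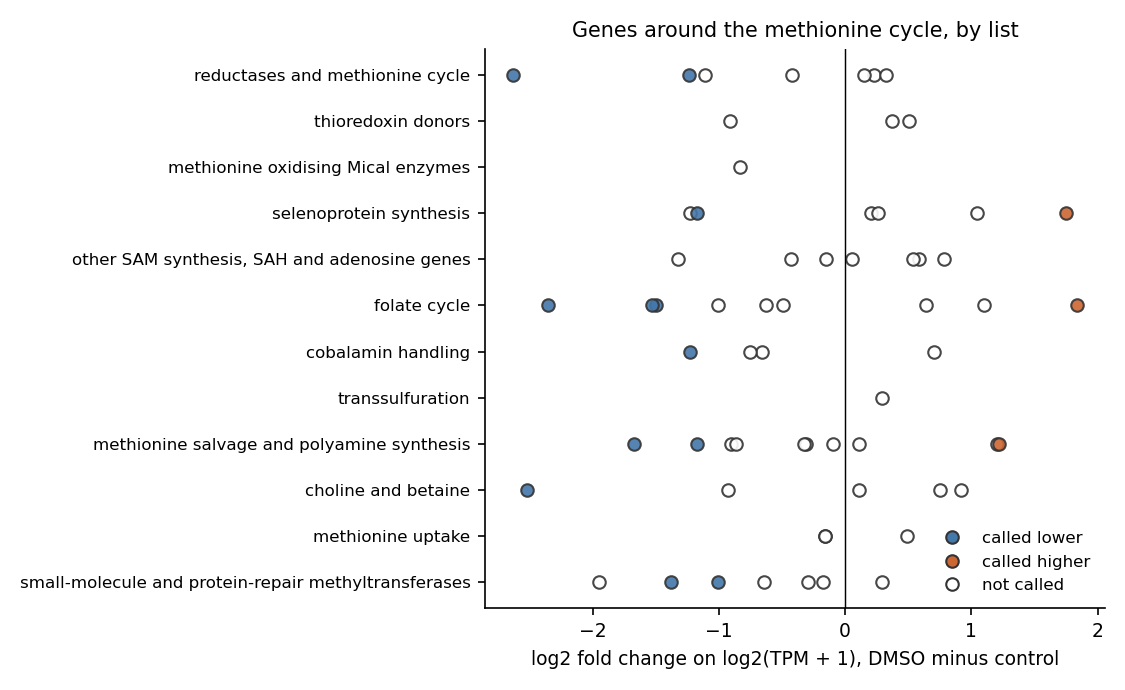
Fitted log2 fold change on the log2(TPM + 1) scale of each tested gene, DMSO minus control, one row per list and one point per gene, with genes called lower in blue, called higher in orange and not called in white. Called genes lie on both sides of 0 in the folate, salvage and polyamine, and selenoprotein lists, and on the lower side alone in the rows of the members, cobalamin, choline and betaine, and methyltransferases.

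SAM also feeds polyamine synthesis, whose by-product is returned to methionine by the salvage pathway, and 2 of 10 tested genes there were called lower and 1 higher, beside 14.1% and 6.42% of all genes. Odc1, ornithine decarboxylase, fell by 1.17 on the log2 scale (limma adjusted p = 0.0355), from 199 and 145 TPM to 82.2 and 68.4 TPM, and 31.3% of its words are shared with other genes. The call of Odc1 was lost without a trend (adjusted p = 0.0530), after quantile normalization (0.0625) and with any library left out (0.0823 to 0.166). Srm, spermidine synthase, fell by 1.67 (limma adjusted p = 0.0245), from 92.2 and 143 TPM to 30.4 and 41.0 TPM. Apip, a dehydratase of the salvage pathway, rose from 55.0 and 37.6 TPM to 118 and 97.2 TPM (log2 fold change 1.22, limma adjusted p = 0.0370), a call lost without a trend (adjusted p = 0.0525). It was also lost with any library left out, the fold change lying between 0.948 and 1.48. Amd1, which decarboxylates SAM, was at 257 and 259 TPM without DMSO and 232 and 251 TPM with it (limma adjusted p = 0.781), and its split from Amd2 is uncertain because 82.8% of its words are shared. Of the methyltransferases that use SAM on small molecules or on damaged protein, 2 of 7 tested were called, both lower, which as for the members is not read as a property of the list beside the 14.1% of all genes called lower. Pemt, which makes phosphatidylcholine, was at 185 and 201 TPM in untreated embryos, against 89.0 and 102 TPM in treated ones (log2 fold change -1.01, limma adjusted p = 0.0372). For Pemt the call was lost without a trend (adjusted p = 0.0585), after quantile normalization (0.0837) and with any library left out (0.0567 to 0.232). Pcmt1, which repairs isoaspartyl residues, was at 156 and 139 TPM in controls and at 57.5 and 54.5 TPM after DMSO (log2 fold change -1.38, limma adjusted p = 0.0221).

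On the side of the reductases, none of the 3 tested thioredoxin genes was called by limma, and 1 had an unadjusted p under 0.05, as did 4835 of the 12038 genes tested. That was Txn2, the mitochondrial thioredoxin, at 8.92 and 11.9 TPM without DMSO and 5.46 and 4.57 TPM with it (limma adjusted p = 0.0842). Txn1, the cytosolic form that recharges MsrA and MsrB1, was at 3.88 and 4.11 TPM in untreated embryos, against 5.80 and 6.43 TPM in treated ones (limma adjusted p = 0.255). Of the Mical enzymes, which oxidise methionines of actin that MsrB1 reduces again, Mical3 was tested, at 2.31 and 4.09 TPM in controls and at 1.43 and 1.18 TPM after DMSO (limma adjusted p = 0.141). Because MsrB1 carries selenocysteine, genes for its insertion were read as well, and of 6 tested 1 was called lower and 1 higher, where 14.1% and 6.42% of all genes were. Trnau1ap, which associates with the selenocysteine tRNA, was at 25.0 and 20.9 TPM without DMSO and 8.79 and 10.5 TPM with it (log2 fold change -1.17, limma adjusted p = 0.0387), a call lost after quantile normalization (adjusted p = 0.0505). It was also lost with any library left out, the fold change lying between -1.29 and -1.05. Eefsec, the elongation factor for selenocysteine, rose from 2.43 and 1.03 TPM to 10.0 and 6.16 TPM (log2 fold change 1.75, limma adjusted p = 0.0347). The call of Eefsec was lost with any library left out, the fold change lying between 1.37 and 2.13. Sephs2, which makes the selenium donor and was the most abundant of this list, was at 61.4 and 51.3 TPM in untreated embryos, against 65.3 and 69.3 TPM in treated ones (limma adjusted p = 0.478).

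The remaining lists held no called gene by limma. Adk, which clears the adenosine that SAH hydrolysis releases, was the most abundant of 7 tested genes for SAM and SAH handling outside the members on the mean of all 4 libraries, though below Ahcyl1 in controls, at 16.5 and 18.0 TPM in controls and at 29.2 and 22.3 TPM after DMSO (limma adjusted p = 0.203). In that list 2 of the 7 genes, Bhmt2 and Bmt2, had an unadjusted p under 0.05, beside 4835 of 12038 over all genes. Mettl16, the RNA methyltransferase that controls splicing and stability of Mat2a RNA, was at 4.87 and 4.96 TPM without DMSO and 2.55 and 4.41 TPM with it (limma adjusted p = 0.387). Of 3 tested genes for methionine uptake 0 had an unadjusted p under 0.05 against the same background, and Slc7a5, the most abundant of that list, was at 12.4 and 14.9 TPM in untreated embryos, against 15.8 and 23.8 TPM in treated ones (limma adjusted p = 0.289). Without control replicate 1, control replicate 2 or DMSO replicate 1 none of the 56 genes was called, and without DMSO replicate 2 the number was 6 lower and 0 higher, namely Shmt1, Tyms, Cd320, Srm, Sardh and Pcmt1. Over all 12038 genes that fit called 1276 lower and 607 higher, so that 6 of 56 is near the background.

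The labelled stage was checked against markers. The 5 oocyte and maternal markers summed to 180 and 104 TPM without DMSO and 682 and 385 TPM with it, mostly Bmp15 and Gdf9, secreted factors of the oocyte. Bmp15 itself was at 102 and 56.0 TPM in controls and at 544 and 285 TPM after DMSO, whereas Zp3, a gene of the egg coat, was at 1.56 and 2.35 TPM in controls and at 1.44 and 0.956 TPM after DMSO. The 4 genes read as activated at the 2-cell stage, Zscan4c, Zscan4d, Tcstv1 and Tcstv3, summed to 506 and 354 TPM without DMSO and 1369 and 1012 TPM with it, Tcstv3 being the most abundant. Zscan4d of that list overlapped between the groups, at 8.62 and 8.28 TPM without DMSO and 9.24 and 7.12 TPM with it. Nlrp5, a maternal gene, was at or near 0 in all 4 libraries. All 7 markers of cumulus and granulosa cells had a mean under 1 TPM and summed to at most 2.42 TPM in a library, Cyp19a1 and Tnfaip6 being the highest, with Fshr, Foxl2 and Inha at 0 in both control libraries. The 4 sperm markers summed to 2.84 and 3.38 TPM without DMSO and 13.4 and 8.48 TPM with it, mostly Prm2, with Tnp2 at 0. The 3 markers of oviduct epithelium summed to 19.7 and 22.3 TPM without DMSO and 28.2 and 36.6 TPM with it, mostly Ovgp1, with Foxj1 at or near 0. The part of oocyte, 2-cell stage, sperm and oviduct transcripts in the values of the members was not tested.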

How the data were processed

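RNA of 2-cell embryos was measured in 4 libraries. The authors quantified reads with kallisto against Ensembl transcripts of GRCm38, added up the transcripts of a gene with tximport and deposited TPM values for 30049 genes. Tool versions are not given in the sources used here. TPM values keep no depth, so no count test, counting error or detection floor was computed, although the authors' test was DESeq2 on counts. Samples were grouped by title, with separate cultures not stated, so that p-values measure the spread between these libraries. Gene names came from GENCODE M21, which named 29589 genes.

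The 12038 genes whose mean reached 1 TPM entered the fit. log2(TPM + 1) was modelled by group in limma 3.58.1 under R 4.3.3 (lmFit, eBayes with trend, two-sided, Benjamini-Hochberg over all genes tested). The fold change on this scale understates the change of low genes. The fit was tested on simulated data. Shared reads were assessed from 31-base words on either strand of GENCODE M21 transcripts, which are not the Ensembl set that the authors used. Alternatives were a pseudocount of 0.1, no filter, a minimum mean of 5 TPM, eBayes with no trend, scaling by median ratios, quantile normalization, a block for the replicate number and each library left out. The named genes were the members and, of each list, the most abundant gene and up to 3 called genes with the largest change, with further list genes named for their role after their values were seen. The members and lists were chosen with earlier results of these data known. Other steps were run in Python 3.11.15 with pandas 2.3.3, numpy 2.4.6 and matplotlib 3.10.9.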

Additional observations from a re-analysis of the deposited data

How the results depend on the processing

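Over all genes tested, 1697 were called lower and 773 higher. With no filter on low values none was called among all genes, the members or the lists, and quantile normalization gave 1121 lower and 1076 higher, so that 49.0% of the calls were higher against 31.3% on the deposited values. Median-ratio scaling gave 39.0%. With the replicate number as a block 2981 were called lower and 2151 higher, and 18 and 8 of the list genes. The block also called Mtrr (limma adjusted p = 0.0392), so that 3 members were lower. The numbers do not pair the samples by the labels. Deviations of same-numbered libraries correlated at r = 0.35 across genes, which are not independent replicates, and there are only 2 pairs. Leaving out each library, with the lone library of a group taken to vary like the other group, gave 0 to 1276 genes lower and 0 to 607 higher, 0 to 2 members lower, and 0 to 6 list genes lower and 0 higher. The 2 members were called in the fits with a pseudocount of 0.1, a minimum mean of 5 TPM, no trend and either scaling. The list genes called lower numbered 6 after quantile normalization and those called higher 1 without a trend. The median of the list genes was -0.32 with a pseudocount of 0.1, -0.16 without a filter and with a minimum of 5 TPM, and -0.12 after quantile normalization, and it ran from -0.35 to -0.14 with a library left out. Mat2b changed sign to -0.06 without control replicate 2 and to -0.30 without DMSO replicate 1, its values with a library left out running from -0.30 to 0.60, and no other tested member and no called list gene changed sign in any fit. The cause of these differences was not tested. With 2 libraries in each group, changes of the size fitted for Msrb1 and Mtr could not be detected, and the fit of Msra is not read as a test.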

Other observations

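The nearest coding genes on either side of each member were also read, and those described here were chosen after their values were seen. Of the neighbours tested, Kif13b, Rpl3l, Hs3st6, Hmmr, Itch and Bhmt2 were not called, and 20.5% of all genes were called. Jmy, an activator of actin nucleation and p53, lies 116866 bases from Bhmt on the other side from Bhmt2. It was at 34.8 and 50.0 TPM in controls and at 3.44 and 9.87 TPM after DMSO (log2 fold change -2.62, limma adjusted p = 0.0221). Fastkd3, a mitochondrial RNA-binding protein gene, begins 84 bases from the start of Mtrr on the opposite strand. It reached 1.59 and 1.27 TPM without DMSO, was listed at 0 in both DMSO libraries and was below the filter. Lemd3, an inner nuclear membrane protein gene beside Msrb3, fell by 1.73 on the log2 scale (limma adjusted p = 0.0360), from 29.1 and 44.3 TPM to 6.93 and 14.7 TPM. Sh2d6, the nearest coding gene on one side of Mat2a, was at 0.917 and 0 TPM in controls and at 7.24 and 3.06 TPM after DMSO. Its mean was 0.458 TPM in controls, so it passed the filter on low values only through the DMSO group. Its limma result is therefore not read as a test.

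By the smallest Euclidean distance of log2(TPM + 1) over the 4 libraries, the 3 tested genes most like Msrb1 were Akt1 (distance 0.167), Lonp1 (0.199) and Klf13 (0.207). Those most like Mat2b were Rlim (0.334), Btf3l4 (0.359) and Dstn (0.360). With 4 libraries such likeness rests mostly on level.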
